A study of Homo sapiens with 12 samples.

Results

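The mRNA of 10 integrin subunits was followed in 6 ovarian cancer cell lines, each with vehicle and with quinacrine (QC). The subunits were chosen by symbol: the alpha subunits ITGA2, ITGA3, ITGA5, ITGA6 and ITGAV and the beta subunits ITGB1, ITGB3, ITGB4, ITGB5 and ITGB8. They are 10 of the 60669 genes in the deposited count table, and each symbol matched 1 Ensembl identifier. All 10 passed the filter on low counts, as did 18720 genes in all.

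The lines form 3 isogenic families, each a chemosensitive parent and a chemoresistant derivative. The HeyA8 family holds HeyA8 and HeyA8-MDR, whose resistance the study gives as to carboplatin. The SKOV3 family holds SKOV3 and SKOV3-TR, which is resistant to taxol, and the OV2008 family holds OV2008 and C13, which is resistant to cisplatin. QC, an acridine long used against malaria, was given at 8 µM for 6 h, and buffer served as vehicle. Each line gave 1 polyadenylated RNA library with vehicle and 1 with QC, so the 12 libraries fall into 4 groups of 3: sensitive with vehicle (HeyA8, SKOV3, OV2008), sensitive with QC, resistant with vehicle (HeyA8-MDR, SKOV3-TR, C13) and resistant with QC. The replicates of a group are different lines, not repeat cultures of 1 line, and no genetic change was engineered in any of them. The HeyA8 lines grew in DMEM and the other lines in RPMI-1640, so medium and family cannot be told apart there.

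Integrins are cell surface receptors made of 1 alpha and 1 beta chain, and the pair sets the ligand. ITGB1 pairs with ITGA2 as a collagen receptor, with ITGA3 or ITGA6 as laminin receptors, with ITGA5 as the main fibronectin receptor and also with ITGAV. ITGAV pairs in addition with ITGB3 and ITGB5, which bind RGD-bearing proteins such as vitronectin and osteopontin, and with ITGB8, which binds latent TGF-beta. ITGB4 pairs with ITGA6 alone, and that pair anchors epithelial cells to laminin at hemidesmosomes.

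Libraries held 17782556 to 30585059 counts, with a median of 22289428. Levels are CPM, the counts scaled to library size and adjusted by the trimmed mean of M values (TMM), and levels of different genes were compared only per kilobase of transcript. The HeyA8 QC library stood apart. Over the 65 genes at least 8-fold higher in HeyA8-MDR than in HeyA8 with vehicle, its level lay a median 37.4% of the way from HeyA8 to HeyA8-MDR, against -0.01% to 3.71% in the other 5 lines for the genes higher in their own partner. Over the 108 genes at least 8-fold lower in HeyA8-MDR it lay 53.1% of the way, against 3.63% to 30.5% in the other 5 lines. For the subunits that passed, QC effects that rest on HeyA8 are therefore also given without that line. QC effects of other genes are given only with HeyA8 included. The tissue label was checked against 4 marker lists, with ranges over the 4 libraries of a family. Of 6 ovarian and Müllerian markers, the lineage factor PAX8 was at 234 to 480 CPM in the HeyA8 and SKOV3 families and at 7.56 to 24.8 CPM in the OV2008 family. SOX17 had 0 to 2 counts in the OV2008 family, and MECOM was lowest there, at 26.4 to 39.5 CPM. ESR1 went the other way against the HeyA8 family only, at 23.7 to 35.0 CPM in the OV2008 family and 0.296 to 0.709 in the HeyA8 family. The SKOV3 pair was split for ESR1. It was at 151 CPM with vehicle and 173 with QC in SKOV3, and at 0.414 and 0.106 in SKOV3-TR. WT1 was at most 4.79 CPM in every library. MUC16 was at most 0.296 CPM in the HeyA8 family, 2.35 in the OV2008 family and 10.9 in the SKOV3 family. All 5 squamous markers were high in the OV2008 family, among them the basal keratin KRT5 at 2550 to 11213 CPM and TP63 at 108 to 329 CPM. In the HeyA8 and SKOV3 families these 5 had at most 60 counts, except KRT5 in SKOV3-TR. Of 4 mesenchymal markers, VIM (4 to 59 counts), ZEB1 (2 to 16 counts) and FN1 were lowest in the OV2008 family, while CDH2 was at 23.4 to 106 CPM there and overlapped the SKOV3 family. In the HeyA8 family VIM was at 7916 to 11923 CPM. Of 5 epithelial markers, EPCAM, CDH1 and KRT19 had at most 66 counts in the HeyA8 family, while KRT8 (813 to 1056 CPM) and KRT18 (479 to 621 CPM) were above the SKOV3 family there. The squamous markers and the low PAX8 and SOX17 of OV2008 and C13 put the labelled identity of these lines in doubt. That identity was not tested, and what is said of the OV2008 family holds for the libraries so labelled.

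Sequence just upstream of the start was read for 3 subunits whose levels differed between families: the collagen receptor chain ITGA2, the fibronectin receptor chain ITGA5 and the TGF-beta activating chain ITGB8. RefSeq entries on GRCh38.p14 covered 7 of the 10 subunits with 12 windows, and these 3 had 1 window each. ITGA3, ITGB3 and ITGB4 had no entry. Each run below is the 250 bases before the start, 5′ to 3′ on the gene's strand, and capitals mark the GC box GGGCGG or its complement CCGCCC.
ITGA2 (chr5:52989102-52989351, plus strand): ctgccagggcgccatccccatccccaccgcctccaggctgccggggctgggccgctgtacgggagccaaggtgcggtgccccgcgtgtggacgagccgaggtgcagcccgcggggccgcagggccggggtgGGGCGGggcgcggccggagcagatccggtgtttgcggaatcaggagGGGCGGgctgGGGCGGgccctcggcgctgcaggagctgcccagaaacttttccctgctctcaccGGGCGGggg
ITGA5 (chr12:54419267-54419516, minus strand): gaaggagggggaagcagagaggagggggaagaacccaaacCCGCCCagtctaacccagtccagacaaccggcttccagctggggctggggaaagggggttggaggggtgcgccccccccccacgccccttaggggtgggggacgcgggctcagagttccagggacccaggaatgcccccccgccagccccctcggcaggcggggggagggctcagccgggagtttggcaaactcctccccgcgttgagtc
ITGB8 (chr7:20330650-20330899, plus strand): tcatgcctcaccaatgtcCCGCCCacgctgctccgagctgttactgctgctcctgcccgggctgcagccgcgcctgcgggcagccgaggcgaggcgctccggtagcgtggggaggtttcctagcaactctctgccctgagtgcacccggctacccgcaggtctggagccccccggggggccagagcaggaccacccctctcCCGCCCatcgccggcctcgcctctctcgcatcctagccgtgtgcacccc
The ITGA2 window held 4 GC boxes, the ITGB8 window 2 and the ITGA5 window 1. GC content was 76.4% for ITGA2, 71.2% for ITGB8 and 70.0% for ITGA5, against a median of 58% over the 35116 windows of the table. The GC box occurred on either strand in 42.6% of all windows. None of the 3 windows held TATAAA, which 10.7% of all windows held, or the AP-1 letters TGANTCA, which 6.57% held.

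The alpha subunits are taken first, with vehicle. ITGA3, the laminin receptor chain, was the highest alpha chain per kilobase in every vehicle library. Its level with vehicle was 1838 CPM in HeyA8, 2289 in HeyA8-MDR, 1469 in SKOV3, 1074 in SKOV3-TR, 883 in OV2008 and 649 in C13. The HeyA8 family lay highest and the OV2008 family lowest, with no overlap between the families. Neither difference passed an adjusted p of 0.05 against the mean of the other families (adjusted p = 0.0591 for HeyA8 and 0.0594 for OV2008, edgeR quasi-likelihood test with Benjamini-Hochberg adjustment over all 18720 genes). Among the alpha subunits of a vehicle library, ITGA3 took 57.0% to 72.2% of the summed CPM per kilobase.

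ITGA5, the fibronectin receptor chain, set the HeyA8 family apart. With vehicle it was at 449 CPM in HeyA8 and 415 in HeyA8-MDR, at 74.5 in SKOV3 and 66.5 in SKOV3-TR, and at 21.2 in OV2008 and 10.6 in C13. The families did not overlap. ITGA5 was higher in the HeyA8 family by 3.70 on the log2 scale (SE 0.345, edgeR adjusted p = 0.00224) and fell by 3.48 in the OV2008 family against the mean of the others (SE 0.425, edgeR adjusted p = 0.00568). Both calls held without any single line. In bulk RNA the share of cells that express a gene and the RNA per cell cannot be told apart, here and below.

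ITGA2, the collagen receptor chain, was at 249 and 220 CPM in HeyA8 and HeyA8-MDR, at 82.5 and 67.8 in OV2008 and C13, and at 34.6 and 14.1 in SKOV3 and SKOV3-TR. It was higher in the HeyA8 family by 2.47 (log2, SE 0.377, edgeR adjusted p = 0.0106) and fell by 2.44 in the SKOV3 family (SE 0.445, edgeR adjusted p = 0.0154). The HeyA8 call was lost without HeyA8, HeyA8-MDR, OV2008 or C13 (edgeR adjusted p 0.0531 to 0.0643), and the SKOV3 call without OV2008 (0.0538) or C13 (0.0577).

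ITGAV, the partner of the RGD-binding beta chains, was highest in the SKOV3 family. It stood at 462 CPM in SKOV3 and 354 in SKOV3-TR, against 169 in HeyA8, 72.0 in HeyA8-MDR, 45.8 in OV2008 and 63.3 in C13. The SKOV3 family was higher by 2.35 (log2, SE 0.383, edgeR adjusted p = 0.0113), and the OV2008 family fell by 2.05 against the others (SE 0.442, edgeR adjusted p = 0.0272). The first call was lost without OV2008 (edgeR adjusted p = 0.0502) or C13 (0.0548), and the second without HeyA8, OV2008 or C13 (0.0507 to 0.175). HeyA8-MDR lay closer to the OV2008 family than to its parent.

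ITGA6, the chain that pairs with ITGB1 or ITGB4 on laminin, was lower in each resistant line than in its parent. With vehicle it was at 710 CPM in HeyA8 and 486 in HeyA8-MDR, at 422 in SKOV3 and 96.6 in SKOV3-TR, and at 661 in OV2008 and 345 in C13. The families overlapped, and no family contrast passed for ITGA6.

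The beta subunits follow. ITGB1, the chain with the most alpha partners, was at 1051 and 996 CPM in HeyA8 and HeyA8-MDR and at 956 and 882 in SKOV3 and SKOV3-TR. OV2008 and C13 had 420 and 309 CPM, below all 4 other lines. ITGB1 fell by 1.44 in the OV2008 family against the others (log2, SE 0.297, edgeR adjusted p = 0.0244). The call was lost without HeyA8, HeyA8-MDR, OV2008 or C13 (edgeR adjusted p 0.0631 to 0.184).

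ITGB4, the hemidesmosome chain, was high in the OV2008 family and near 0 in the HeyA8 family. With vehicle it was at 1209 CPM in OV2008 and 858 in C13, at 434 in SKOV3 and 420 in SKOV3-TR, and at 0.532 in HeyA8 and 2.55 in HeyA8-MDR. The HeyA8 values were 12 and 49 counts. ITGB4 was higher in the OV2008 family by 5.31 (log2, SE 0.546, edgeR adjusted p = 0.00328) and in the SKOV3 family by 3.44 (SE 0.518, edgeR adjusted p = 0.00865), and fell by 8.75 in the HeyA8 family (SE 0.838, edgeR adjusted p = 0.00247). The HeyA8 family near 0 enters each of these differences and sets much of their size. The SKOV3 family lay below the OV2008 family and above the HeyA8 family only. The HeyA8 and OV2008 calls held without any single line, and the SKOV3 call was lost without C13 (edgeR adjusted p = 0.0577). The squamous markers KRT5 and TP63 were high in the same OV2008 family libraries, and KRT5 was at 0 in the HeyA8 family. In SKOV3, where ITGB4 was at 434 CPM, KRT5 was at 0 counts, and in SKOV3-TR, where ITGB4 was at 420 CPM, KRT5 had 1672 counts. The part of these lineage differences in the ITGB4 result was not tested.

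ITGB8, the chain that binds latent TGF-beta, was at 0.709 CPM in HeyA8 and 1.04 in HeyA8-MDR (16 and 20 counts). It was at 39.1 CPM in SKOV3, 38.0 in OV2008 and 8.59 in C13, and at 407 in SKOV3-TR. It fell by 6.37 in the HeyA8 family against the others (log2, SE 1.32, edgeR adjusted p = 0.0270) and was higher by 5.66 in the SKOV3 family (SE 0.964, edgeR adjusted p = 0.0129). The HeyA8 family near 0 enters both differences. The SKOV3 and OV2008 families met near 38 to 39 CPM, and without SKOV3-TR the second difference was 3.10 (edgeR adjusted p = 0.0266). The first call was lost without HeyA8, HeyA8-MDR, OV2008 or C13 (edgeR adjusted p 0.0532 to 0.158), and the second without HeyA8, HeyA8-MDR or C13 (0.0568 to 0.0620).

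ITGB5, the vitronectin receptor chain, was at 377 CPM in SKOV3-TR and at 189 in SKOV3, against 130 in HeyA8, 145 in HeyA8-MDR, 95.7 in OV2008 and 66.7 in C13. The SKOV3 family was higher by 1.45 (log2, SE 0.360, edgeR adjusted p = 0.0357). Without SKOV3-TR the difference was 0.84 (edgeR adjusted p = 0.180), and the call was also lost without HeyA8, HeyA8-MDR, OV2008 or C13 (0.0762 to 0.122) and in the QC libraries (0.88, edgeR adjusted p = 0.153).

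ITGB3, the osteopontin and vitronectin receptor chain, was high in SKOV3-TR alone. It was at 183 CPM in SKOV3-TR, 9.33 in SKOV3, 6.03 in HeyA8, 4.52 in HeyA8-MDR and 0.200 in C13, where it had 6 counts. OV2008 had 0 counts with vehicle, which allows up to 0.168 CPM at 3 counts. ITGB3 passed as higher in the SKOV3 family (edgeR adjusted p = 0.0123) and as lower in the OV2008 family (edgeR adjusted p = 0.0280), and no fold is given against libraries near 0. The first call was lost without HeyA8, HeyA8-MDR, OV2008 or C13 (0.0527 to 0.0604), and the second without the same lines (0.0647 to 0.156). A transcript on the same strand, ENSG00000259753, shares 33.2% of the exonic bases of ITGB3 and had 1 count over the 12 libraries. Whether reads on the shared bases are missing from the ITGB3 counts was not tested.

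Against each family's mean of the other 2, 4 of the 10 subunits passed an adjusted p of 0.05 in the HeyA8 family, 6 in the SKOV3 family and 5 in the OV2008 family. The share of all genes that passed was 10.7% for HeyA8, 17.7% for SKOV3 and 14% for OV2008. The subunits' median log2 difference was 0.69 in the HeyA8 family, 1.03 in the SKOV3 family and -1.21 in the OV2008 family, beside 0.02, 0.10 and -0.08 over all genes. The 3 contrasts share the same 6 libraries.

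**Figure D1:**
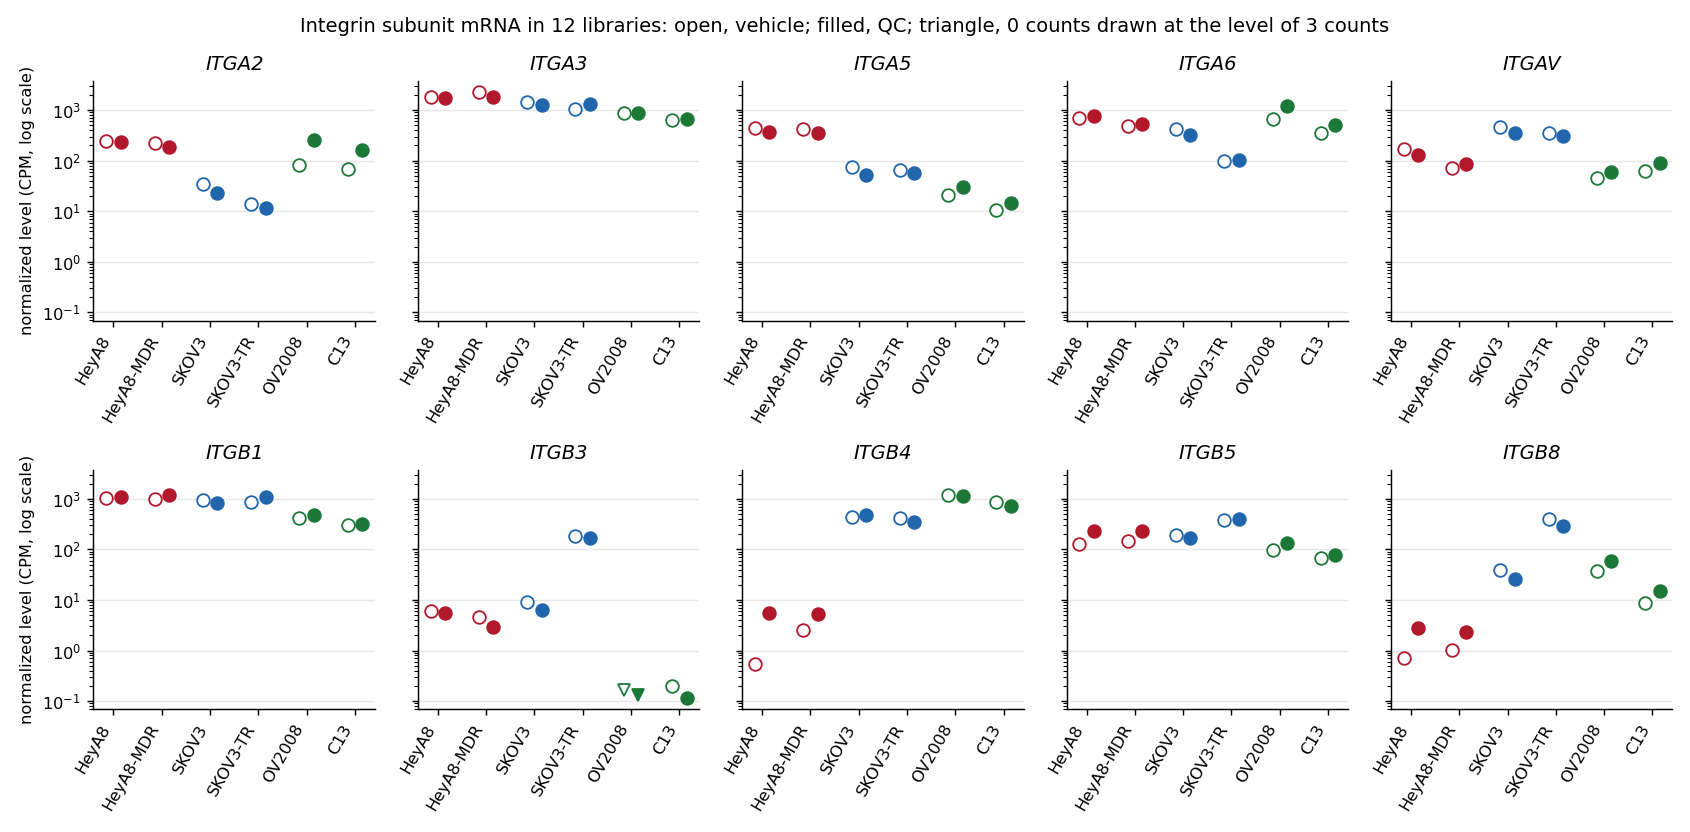
TMM-normalized level of each subunit in CPM on a log axis (y) for the 6 lines (x), 1 point per library, open for vehicle and filled for QC, coloured by family, with 0 counts drawn as triangles at the level of 3 counts. ITGB4 lies between 0.532 and 5.59 CPM in the HeyA8 family and between 348 and 1209 CPM elsewhere, and ITGB3 reaches 183 CPM in SKOV3-TR alone.

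The make-up of the beta chains changed from family to family. Shares are of the summed CPM per kilobase of the 5 beta or the 5 alpha subunits in 1 vehicle library, and carry no test. ITGB1 made 90.2% of the beta level in HeyA8 and 88.7% in HeyA8-MDR, 67.7% in SKOV3, 50.4% in SKOV3-TR, 32.8% in OV2008 and 33.9% in C13. ITGB4 made 59.7% in OV2008 and 59.6% in C13, 19.5% in SKOV3, 15.2% in SKOV3-TR, and 0.0288% and 0.144% in HeyA8 and HeyA8-MDR. ITGB4 thus exceeded ITGB1 per kilobase in both lines of the OV2008 family and in no other line, also by coding length, where its share was 48.8% in OV2008 and 49.4% in C13. SKOV3-TR held the largest shares of ITGB8 (9.69%) and ITGB3 (6.56%), against 1.15% and 0.415% in SKOV3. By coding length these shares were 20.6% for ITGB8 and 9.02% for ITGB3 in SKOV3-TR, against 2.93% and 0.682% in SKOV3, and ITGB8 then exceeded ITGB5 (18.3%) in SKOV3-TR. Of the transcript bases, 2307 of 8974 are coding in ITGB8, 2397 of 4440 in ITGB5 and 5466 of 5896 in ITGB4. Scaling by coding length therefore raises ITGB8 more than ITGB5 and ITGB4.

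Among alpha chains, ITGA6 came after ITGA3 in HeyA8 (18.5%), SKOV3 (15.8%), OV2008 (35.9%) and C13 (27.9%). In HeyA8-MDR the second chain was ITGA5, with 14.2% against 12.2% for ITGA6, and in SKOV3-TR it was ITGAV, with 16.6%. By coding length the order of these second chains turned in SKOV3 (ITGAV 18.9%, ITGA6 16.9%) and in HeyA8-MDR (ITGA6 13.8%, ITGA5 12.1%). ITGA6 was down to 5.46% in SKOV3-TR. ITGA5 made 16.0% in HeyA8 and 1.58% in OV2008. With QC, ITGA6 passed ITGA3 in OV2008, at 48.2% against 40.6%, which no other library showed.

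**Figure D2:**
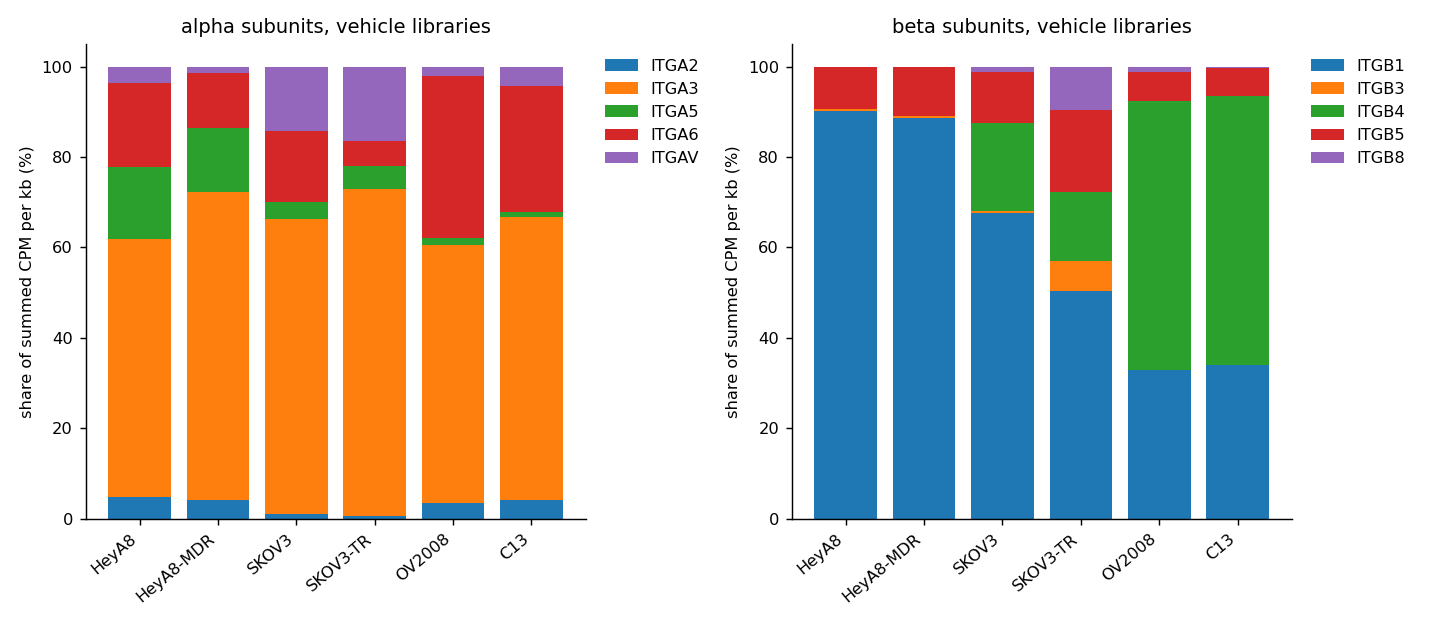
Share in percent (y) of each alpha subunit (left) and each beta subunit (right) in the summed CPM per kilobase of transcript in the 6 vehicle libraries (x). ITGB1 fills 90.2% of the beta bar in HeyA8 and 32.8% in OV2008, where ITGB4 fills 59.7%.

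Resistant lines were compared with their parents without drug. Over the 6 vehicle libraries with family as a block, 1 of the 10 subunits passed an unadjusted p of 0.05, the threshold the study used, beside 3.71% of all genes. That subunit was ITGA6, which fell by 1.20 on the log2 scale in resistant lines (SE 0.374, unadjusted p = 0.0186, edgeR adjusted p = 0.994). It was lower in 3 of 3 families. Without the SKOV3 family the difference was -0.73 (unadjusted p = 0.0707, edgeR) and without the OV2008 family -1.31 (unadjusted p = 0.0578, edgeR). Over all genes 0 passed an adjusted p of 0.05 in this contrast with edgeR, and 694 had an unadjusted p under 0.05.

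Each resistant line was next set beside its own parent, with 1 library per line and treatment and so no test. A subunit was counted where it differed by 2-fold or more in the same direction with vehicle and with QC, and where 1 of both lines had at least 10 counts. In HeyA8-MDR 0 of the 10 subunits did, beside 5.44% of all genes. The HeyA8 QC library used here is the one that stood apart. With vehicle alone ITGAV was 2.34-fold lower in HeyA8-MDR, and ITGB4 was 4.26-fold higher at 49 against 12 counts.

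In SKOV3-TR 4 of 10 subunits passed this mark, beside 22% of all genes. ITGB3 was 19.4-fold higher than in SKOV3 with vehicle and 27.2-fold with QC. ITGB8 was 10.4-fold higher with vehicle and 11.3-fold with QC. ITGA6 was lower by 4.37-fold and 3.15-fold, and ITGA2 by 2.45-fold and 2.02-fold. ITGB5 lay just outside, at 1.99-fold and 2.38-fold higher. ITGB3, ITGB5 and ITGB8 are beta partners of ITGAV, and ITGAV itself was 354 CPM against 462 with vehicle and 308 against 352 with QC.

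In C13 2 of 10 subunits passed, beside 8.95% of all genes, and both were lower than in OV2008. ITGB8 was 4.39-fold lower with vehicle and 3.92-fold with QC, the opposite direction to SKOV3-TR. ITGA5 was at 0.499 of the OV2008 level with vehicle and 0.481 with QC, the member closest to the mark. ITGA6 lay just outside, at 1.92-fold and 2.38-fold lower. No subunit passed the mark in more than 1 pair except ITGB8, which did so in opposite directions.

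**Figure D3:**
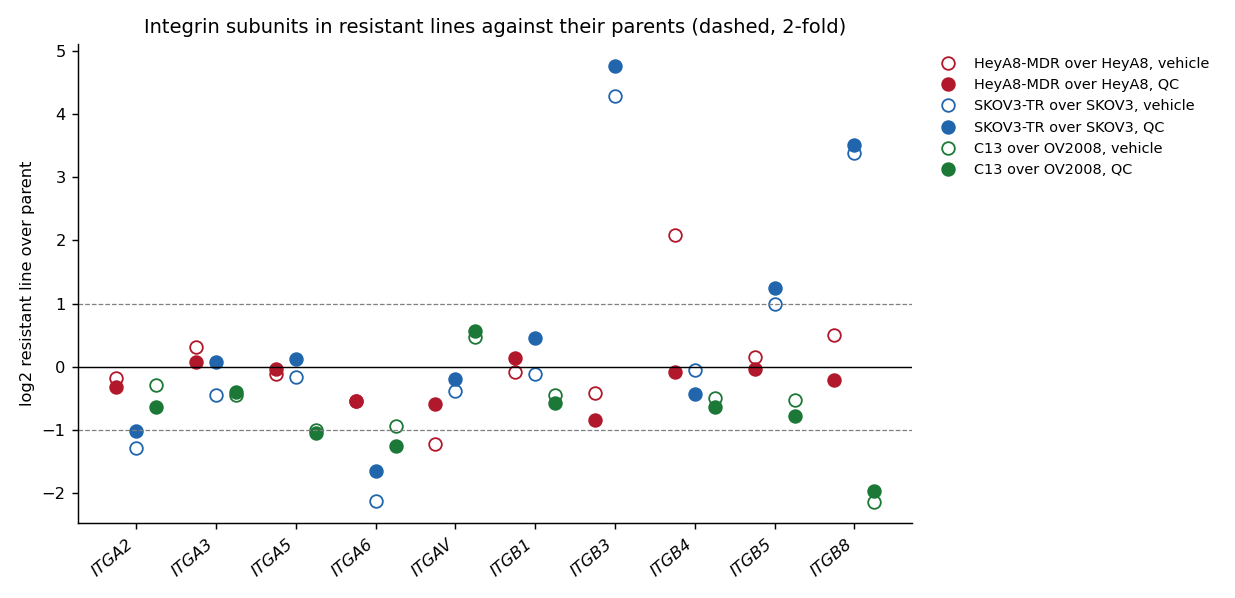
log2 ratio of each resistant line over its parent (y) for each subunit (x), open with vehicle and filled with QC, with dashed lines at 2-fold and 1 library behind each level. ITGB3 (19.4-fold and 27.2-fold) and ITGB8 (10.4-fold and 11.3-fold) stand above the rest in SKOV3-TR, while ITGB8 is 4.39-fold and 3.92-fold lower in C13. ITGB3 is not drawn for C13 because neither C13 nor OV2008 reached 10 counts.

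The main question of the study is what QC does in sensitive and resistant lines. Over the 6 lines, with cell line as a block, 1 of 10 subunits passed an unadjusted p of 0.05, beside 15.2% of all genes. ITGB5 was at 130, 189 and 95.7 CPM with vehicle and 234, 170 and 134 with QC in the sensitive HeyA8, SKOV3 and OV2008. In the resistant HeyA8-MDR, SKOV3-TR and C13 it was at 145, 377 and 66.7 CPM with vehicle and 229, 404 and 77.8 with QC. It rose in 5 of 6 lines, and the mean change was 0.36 on the log2 scale (SE 0.140, unadjusted p = 0.0240, edgeR adjusted p = 0.255). Without HeyA8 the change was 0.26 (unadjusted p = 0.0889, edgeR), without HeyA8-MDR 0.28 (0.0922) and without OV2008 0.34 (0.0587). Over all genes 0 passed an adjusted p of 0.05 in this contrast with edgeR, and 2840 had an unadjusted p under 0.05.

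ITGB3 was lower with QC in each of the 4 lines that had at least 10 counts, by 0.09 to 0.60 on the log2 scale, and did not pass (unadjusted p = 0.0503, edgeR). In C13 it had 6 counts with vehicle and 3 with QC. ITGA6 and ITGB1 were higher with QC in 5 of 6 lines, ITGA2, ITGA3 and ITGA5 in 2 of 6, and ITGAV and ITGB4 in 3 of 6. ITGB1 ranged from -0.24 in SKOV3 to 0.33 in SKOV3-TR, and ITGA3 from -0.31 in HeyA8-MDR to 0.30 in SKOV3-TR.

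Split by resistance, the QC effect passed an unadjusted p of 0.05 for 0 of 10 subunits in sensitive lines, beside 6.59% of all genes, and for 0 of 10 in resistant lines, beside 6.03%. The difference of both effects passed for 0 of 10 subunits, beside 1.16% of all genes. Over all genes 0 passed an adjusted p of 0.05 with edgeR in any of these 3, and 1234, 1128 and 217 had an unadjusted p under 0.05. The 10 subunits had a median change of 0.10 in sensitive and 0.20 in resistant lines (log2), beside 0.02 and -0.01 over all genes.

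ITGA2, ITGA5 and ITGB8 moved with QC in directions that split by family. The QC effect of each family was therefore set against the mean of the other 2, a comparison chosen after the data were seen, with cell line as a block and 2 lines per family. In the OV2008 family 5 of 10 subunits passed an unadjusted p of 0.05, beside 14.9% of all genes.

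ITGA2 was the subunit that changed most there. It went from 82.5 to 257 CPM in OV2008 and from 67.8 to 166 CPM in C13, which is 1.64 and 1.29 on the log2 scale. In HeyA8 it went from 249 to 239 CPM, in HeyA8-MDR from 220 to 191, in SKOV3 from 34.6 to 23.3 and in SKOV3-TR from 14.1 to 11.5. The OV2008 and C13 libraries rose and the other 4 lines were each lower with QC. The family difference was 1.75 (log2, SE 0.208, edgeR adjusted p = 0.0377), and ITGA2 was among 10 genes with an adjusted p under 0.05 in this contrast. Without HeyA8 it was 1.79 (edgeR adjusted p = 0.00689). The adjusted call was lost without SKOV3 (0.0855), SKOV3-TR (0.0741) or OV2008 (0.412) and held without C13 (0.0480). Over all alternatives the difference ran from 1.57 to 1.93 and its adjusted p from 5.6e-13 with DESeq2 to 0.9999 in the fit without the cell line block. With QC, ITGA2 in OV2008 reached the level of HeyA8 with vehicle.

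ITGA5 went from 21.2 to 30.7 CPM in OV2008 and from 10.6 to 14.7 in C13. In the other 4 lines it was lower with QC, by 0.20 to 0.49 on the log2 scale. The OV2008 family difference was 0.81 (log2, SE 0.200, unadjusted p = 0.00239, edgeR adjusted p = 0.126), and 0.79 without HeyA8 (unadjusted p = 0.00336). ITGA6 went from 661 to 1218 CPM in OV2008 and from 345 to 512 in C13, and the family difference was 0.72 (SE 0.221, unadjusted p = 0.00854, edgeR adjusted p = 0.194). Without OV2008 that ITGA6 value was 0.57 (unadjusted p = 0.104, edgeR), and without HeyA8 it was 0.72 (unadjusted p = 0.0147). ITGAV went from 45.8 to 59.3 CPM in OV2008 and from 63.3 to 88.1 in C13, with a difference of 0.59 (SE 0.228, unadjusted p = 0.0264, edgeR adjusted p = 0.271) that was lost without SKOV3, OV2008 or C13 (unadjusted p 0.0504 to 0.134). Without HeyA8 the ITGAV difference was 0.43 (unadjusted p = 0.0680, edgeR). ITGB4 passed with a difference of -1.11 (unadjusted p = 0.0205, edgeR), although it changed by only -0.07 in OV2008 and -0.22 in C13. That ITGB4 difference was -0.63 without HeyA8 (unadjusted p = 0.0389) and was lost without OV2008 (unadjusted p = 0.0651, edgeR) or C13 (0.0885). ITGA3 stayed at 883 and 863 CPM in OV2008 and at 649 and 653 in C13.

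In the HeyA8 family 4 of 10 subunits passed, beside 10.6% of all genes, and 3 of them were beta chains higher with QC. ITGB4 went from 0.532 to 5.59 CPM in HeyA8 (12 to 153 counts) and from 2.55 to 5.27 in HeyA8-MDR (49 to 89 counts). The family difference was 2.11 (log2, SE 0.471, unadjusted p = 0.00122, edgeR adjusted p = 0.324), and without HeyA8 it was 1.16 (unadjusted p = 0.00934, edgeR). The part of the HeyA8 QC library in the larger value was not tested. ITGB8 went from 0.709 to 2.74 CPM in HeyA8 and from 1.04 to 2.37 in HeyA8-MDR, with a difference of 1.48 (SE 0.295, unadjusted p = 0.000557, edgeR adjusted p = 0.288), and of 1.09 without HeyA8 (unadjusted p = 0.0181, edgeR). ITGB4 and ITGB8 thus stayed far below the other families' levels. ITGB5 changed by 0.85 in HeyA8 and 0.66 in HeyA8-MDR, with a difference of 0.59 (unadjusted p = 0.0153, edgeR) that was lost without HeyA8 (0.50, unadjusted p = 0.0853). ITGA2 differed by -0.65 (unadjusted p = 0.0104, edgeR), and by -0.72 without HeyA8 (unadjusted p = 0.0171).

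In the SKOV3 family 6 of 10 subunits passed, beside 10.2% of all genes, and all 6 differences were negative. Of these, ITGA2, ITGA5 and ITGB8 were lower with QC in both SKOV3 and SKOV3-TR. The others differed in direction between SKOV3 and SKOV3-TR. On the log2 scale ITGA6 changed by -0.37 and 0.10, ITGB4 by 0.12 and -0.27, and ITGB5 by -0.15 and 0.10. ITGB8 went from 39.1 to 25.7 CPM in SKOV3 and from 407 to 292 in SKOV3-TR, while it was higher with QC in each of the other 4 lines. The difference was -1.70 (log2, SE 0.235, unadjusted p = 3.03e-05, edgeR adjusted p = 0.135), and -1.50 without HeyA8 (edgeR adjusted p = 0.0755). ITGA2 differed by -1.10 (unadjusted p = 0.000407, edgeR adjusted p = 0.227). ITGA5 (-0.48), ITGA6 (-0.56), ITGB4 (-1.002) and ITGB5 (-0.58) had unadjusted p from 0.0167 to 0.0351 by edgeR. Without HeyA8 the differences were -1.06 for ITGA2 (unadjusted p = 0.000475, edgeR), -0.50 for ITGA5 (0.0365), -0.57 for ITGA6 (0.0453), -0.53 for ITGB4 (0.0776) and -0.53 for ITGB5 (0.0330). Leaving out SKOV3, OV2008 or C13 ended the ITGA5 call (unadjusted p 0.0638 to 0.156), and leaving out SKOV3 or OV2008 ended those of ITGA6 (0.0966 and 0.154) and ITGB5 (0.0623 and 0.0788). The ITGB4 call was also lost without SKOV3-TR (0.131) or OV2008 (0.0735). The 3 family contrasts share all 12 libraries, so a rise in 1 family enters the other contrasts as a fall.

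**Figure D4:**
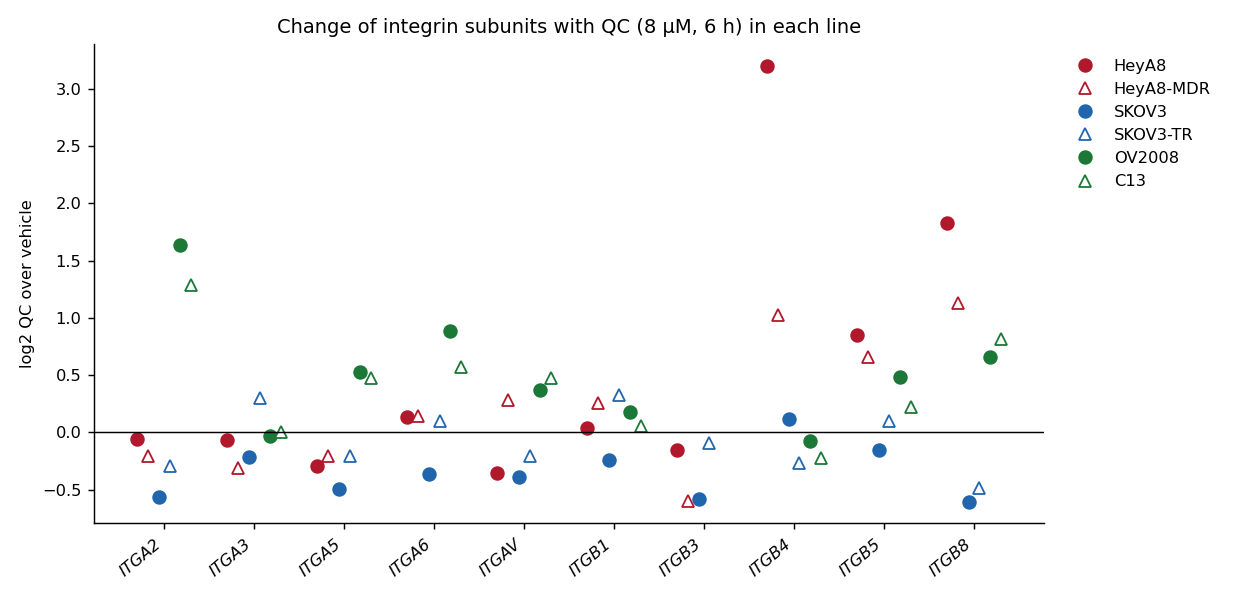
log2 ratio of the QC over the vehicle library (y) for each subunit (x) and line, circles for sensitive and open triangles for resistant lines, coloured by family. ITGA2 lies at 1.64 and 1.29 in OV2008 and C13 and below 0 in the other 4 lines, and ITGB8 lies below 0 in SKOV3 and SKOV3-TR alone; ITGB3 is not drawn for OV2008 and C13, which had fewer than 10 counts.

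Other genes of the integrin system were read from lists, whose counts stand beside the 10.7% (HeyA8), 17.7% (SKOV3) and 14% (OV2008) of all genes that passed in the family contrasts. Of 16 other integrin subunits 14 passed the filter, and against the other families 3 were higher and 1 lower in the HeyA8 family, 5 higher and 1 lower in the SKOV3 family, and 0 higher and 3 lower in the OV2008 family (adjusted p under 0.05). ITGB6, another partner of ITGAV, was at 23.9 and 19.9 CPM in SKOV3 and SKOV3-TR with vehicle, at 4.59 and 7.72 in OV2008 and C13, and had 4 and 0 counts in HeyA8 and HeyA8-MDR. ITGA7, a laminin receptor chain, was higher in the SKOV3 family by 3.85 (log2, edgeR adjusted p = 0.0104). ITGAX, a leukocyte integrin chain, was higher by 4.88 in the HeyA8 family (edgeR adjusted p = 0.00553) and fell by 3.84 in the OV2008 family (0.0228). Its libraries held 86 to 303 counts in the HeyA8 family, 2 to 40 in the SKOV3 family and 2 to 6 in the OV2008 family. Both ITGAX differences thus set the HeyA8 family against libraries near 0. ITGA1, a collagen receptor chain, fell by 4.42 in the OV2008 family (0.0174), where OV2008 and C13 had 12 and 57 counts with vehicle.

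Of 20 ligand genes 18 were tested, and 5 were higher and 1 lower in the HeyA8 family, 5 higher and 2 lower in the SKOV3 family, and 1 higher and 6 lower in the OV2008 family, beside 10.7%, 17.7% and 14% of all genes. SPP1, which encodes osteopontin, was at 737 CPM in SKOV3-TR and 90.9 in SKOV3 with vehicle, at 45.9 and 13.6 in HeyA8 and HeyA8-MDR, and had 3 and 15 counts in OV2008 and C13. TNC, an integrin-binding matrix protein, was higher in the HeyA8 family by 7.72 (log2, edgeR adjusted p = 0.000932) and fell by 6.95 in the SKOV3 family (0.00288). It was at 832 to 1276 CPM in the HeyA8 family, at 13.9 to 34.7 in the OV2008 family and had 13 to 54 counts per library in the SKOV3 family. The high HeyA8 level enters both TNC differences. LAMA3, a chain of the laminin that ITGA3 and ITGA6 receptors bind, was higher by 1.81 in the OV2008 family (0.00801) and fell by 3.12 in the HeyA8 family (0.00278). COL4A2, a basement membrane collagen chain, fell by 3.62 in the OV2008 family (0.00460).

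All 26 adaptor genes of focal adhesions were tested, and 6 were higher and 0 lower in the HeyA8 family, 0 higher and 5 lower in the SKOV3 family, and 2 higher and 3 lower in the OV2008 family, beside 10.7%, 17.7% and 14% of all genes. PXN, the scaffold paxillin, was higher by 1.57 in the HeyA8 family (edgeR adjusted p = 0.0166) and fell by 1.87 in the SKOV3 family (0.0126). DAB2, an endocytic adaptor, was higher by 3.89 in the HeyA8 family (0.0130). TNS4, a short tensin, was at 375 and 131 CPM in OV2008 and C13 with vehicle and at most 1.24 CPM in the other vehicle libraries. LIMS2 fell by 4.55 in the OV2008 family (0.0206), where it had 6 to 18 counts per library, and reached at most 10.3 CPM in any library.

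All 9 hemidesmosome and tetraspanin genes were tested, and 2 were higher in the HeyA8 family, 3 lower in the SKOV3 family and 4 higher in the OV2008 family, with 0 in the opposite directions, beside 10.7%, 17.7% and 14% of all genes. COL17A1, the hemidesmosomal collagen, was higher by 5.89 in the OV2008 family (log2, edgeR adjusted p = 0.00373) and fell by 4.43 in the SKOV3 family (0.0135), where ITGB4 was also high. KRT14 had 1681 and 720 counts in OV2008 and C13 with vehicle and at most 2 in the other vehicle libraries. CD82, a tetraspanin, was higher by 2.35 in the HeyA8 family (0.00845) and fell by 4.40 in the SKOV3 family (0.00352). With vehicle CD82 was at 60.4 and 67.1 CPM in HeyA8 and HeyA8-MDR and at 68.3 and 44.3 in OV2008 and C13. In SKOV3 and SKOV3-TR it was at 2.38 and 3.19 CPM. The HeyA8 family thus lay above the SKOV3 family only and overlapped the OV2008 family. PLEC, the plakin that links ITGB4 to keratin, was higher by 1.43 in the HeyA8 family (0.0264), where ITGB4 was near 0.

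With QC over all lines, 3 other integrin subunits rose and 1 fell at an unadjusted p of 0.05, 0 ligands rose and 1 fell, 4 adaptors rose and 2 fell, and 2 hemidesmosome or tetraspanin genes rose and 3 fell, of 14, 18, 26 and 9 tested and beside 15.2% of all genes. FERMT2, the activator kindlin-2, rose by 0.59 (log2, unadjusted p = 0.00137, edgeR adjusted p = 0.152), TNS1 fell by 1.14 (unadjusted p = 0.00112), and PLEC fell by 0.40 (unadjusted p = 0.00985). ITGAX fell by 1.37 (unadjusted p = 0.00101), at 40 counts or fewer per library in the SKOV3 and OV2008 families. ITGAM rose by 2.02 (unadjusted p = 0.00220), at 62 counts or fewer per library. LAMA5 fell by 0.35 (unadjusted p = 0.0465).
In the QC effect of the OV2008 family minus that of the others, 7 of 18 ligand genes were positive and 0 negative at an unadjusted p of 0.05, beside 14.9% of all genes. A positive difference can come from a rise in this family or a fall in the others. FN1, fibronectin, differed by 1.11 (unadjusted p = 0.00463, edgeR adjusted p = 0.154). FN1 went from 4.20 to 7.19 CPM in OV2008 and from 32.4 to 36.1 in C13, while it went from 11840 to 6711 CPM in HeyA8 and from 217 to 96.9 in SKOV3. It went from 7260 to 6335 CPM in HeyA8-MDR and from 87.5 to 59.3 in SKOV3-TR. The FN1 difference includes the HeyA8 QC library that stood apart.

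For each subunit the gene with the closest profile over the 12 libraries was found among 18710 other genes, as the smallest root mean square (RMS) difference of log2 CPM after centring each gene. ITGB3 was closest to SPP1, the gene of its own ligand osteopontin, at an RMS difference of 0.82 beside an RMS of 3.59 for ITGB3 itself. ITGB4 was closest to MISP (0.67 beside 3.84), ITGA5 to RASSF8 (0.39 beside 1.87) and ITGAV to ATF2 (0.29 beside 1.12). ITGB1 was closest to DPY19L1 (0.17 beside 0.70), ITGA3 to CCNY (0.21 beside 0.58), ITGA6 to KCTD12 (0.34 beside 1.05) and ITGB5 to PARD3 (0.27 beside 0.78). ITGA2 and ITGB8 were closest to HSD17B2 and PRRX2, which reached at most 1.78 and 9.84 CPM. Among the subunits themselves the closest pair was ITGA3 and ITGB1, which form a laminin receptor, at 0.29. Next came ITGB1 and ITGB5, both beta chains, at 0.47, while the partners ITGA6 and ITGB4 lay at 4.24. Genes that vary little lie close by this measure, and ITGA3, ITGB1 and ITGB5 had the smallest RMS of the 10 subunits. The 12 libraries come from 3 families, so these distances mostly compare families.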

How the data were processed

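Polyadenylated RNA of 6 lines, each with vehicle or QC, was sequenced from TruSeq libraries. The authors deposited raw read counts per gene, 1 column per library. The submitters' processing notes name STAR 2.7.3a, HTSeq 0.6.1p1 and GRCh38.p13, while the study's text names TopHat, hg19 and HTSeq. Annotation release and strand setting are not given in the sources used here, so reads of antisense genes cannot be told apart. Each such gene shares at most 2.75% of a subunit's exonic bases. ITGA6 overlaps several of them, at 2.605%, 1.872% and 0.779%. Transcript lengths came from GENCODE on GRCh37 and no coordinate was taken from it.

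Genes were filtered with filterByExpr over the 4 groups (minimum count 10, total 15), scaled by TMM and tested by the edgeR 4.0.16 quasi-likelihood test (R 4.3.3), two-sided, with Benjamini-Hochberg adjustment over 18720 genes. QC effects used cell line as a block, resistance used family as a block over the 6 vehicle libraries, and family contrasts used the 6 vehicle libraries with 2 lines per family. Calls used an unadjusted p of 0.05 for QC and resistance, the study's threshold, and an adjusted p of 0.05 for families. Replicates are lines. P-values of the family contrasts measure the spread between a parent and its derivative, which are isogenic and not independent replicates of a family. Those of the QC effects measure how the QC change varies between lines, within families for the QC effects per family. Those of resistance measure how the difference of a resistant line from its parent varies between families. The pairing was checked: deviations from the group means correlated between both libraries of the same line (0.893 to 0.929) and between both lines of a family (0.695 to 0.763). Library ratios used a prior count of 2 and at least 10 counts in 1 of both libraries. Intervals set by 3 counts cover counting error only.

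The subunits, lists and comparisons were chosen with earlier results of these data known, and QC effects per family were added after the data were seen. All 10 subunits are named. From each list the text names up to 2 genes with the smallest p in a contrast, and for each subunit the gene of closest profile. One result that this rule would name is not reported here. Alternatives were another size factor, raw library size, no filter, DESeq2 1.42.0, no block, QC libraries and leaving out each line or family. Each fit was tested on simulated data. Figures were drawn with matplotlib 3.10.9.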

Additional observations from a re-analysis of the deposited data

Results flagged for a closer look

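ITGA2 was picked out because its QC effect in the OV2008 family differed from that of the other families, by 1.75 on the log2 scale (edgeR adjusted p = 0.0377), and because both lines of that family rose while the other 4 lines were lower, a difference of mean library ratios of 1.75. ITGA5 was picked out for the same split of directions, with a difference of means of 0.80. In the fit added after the data were seen its edgeR adjusted p was 0.126. ITGB8 was picked out because both SKOV3 lines were lower with QC and the other 4 lines higher, a difference of means of -1.65. Its edgeR adjusted p in the added fit was 0.135. The HeyA8 QC library, which lay toward HeyA8-MDR, is among the 4 other lines in the ITGA2, ITGA5 and ITGB8 comparisons. For ITGB8 the HeyA8 ratio of 1.83 (log2, 16 to 75 counts) was the largest of the 4. The part of that library was not tested beyond leaving HeyA8 out. No group held 4 samples, so a search for single outlying samples was not run.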

How the results depend on the processing

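Depth set a limit for ITGB3 in the OV2008 family and for ITGB4 and ITGB8 in HeyA8, where counts were few, and 1 library per line and treatment set the limit for the rest. Of the 10 subunits, QC over all lines called 2 with DESeq2 size factors, 2 with raw library sizes, 4 without a filter on low counts and 0 with no replicate block. Without a filter it called 2 subunits in sensitive lines, 1 for the difference of QC effects and 2 for resistance. Resistance called 2 with DESeq2, 2 in the QC libraries and 0 with no replicate block. QC effects per family with no replicate block called 1 subunit for HeyA8, 0 for SKOV3 and 1 for OV2008. The cause of these shifts was not tested.
Over all genes, fits with no replicate block called 117 genes for QC over all lines, 30 in sensitive lines, 23 in resistant lines, 6 for their difference and 124 for resistance, and 196, 221 and 406 for QC in the HeyA8, SKOV3 and OV2008 families. All genes without a filter gave 1918 calls in sensitive lines, 501 for the difference, 1583 for resistance and 3827, 5360 and 4496 for the HeyA8, SKOV3 and OV2008 families. DESeq2 gave 1137 for resistance and 3849, 5170 and 4729 for the 3 families, and the QC libraries gave 3059 for HeyA8.
Leaving out 1 line or family at a time gave these ranges of subunits called: 0 to 3 for QC over all lines, 0 to 2 in sensitive lines, 0 to 2 for resistance, 2 to 5 for the HeyA8, 0 to 7 for the SKOV3 and 2 to 6 for the OV2008 family, and 2 to 6 and 2 to 5 for QC in the SKOV3 and OV2008 families. Over all genes the ranges were 743 to 1929 in sensitive lines, 401 to 1364 in resistant lines, 171 to 542 for their difference, 592 to 2609 for HeyA8, 753 to 2620 for SKOV3, 288 to 3255 for OV2008, and 1247 to 2534 and 1513 to 3263 for QC in the SKOV3 and OV2008 families. Family contrasts without 1 line had 1 line in an arm, assumed to vary like the others. The planned coding length from RefSeq proteins was not run, and coding length from the annotation, added after the data were seen, moved the median share of ITGB4 from 17.3% to 11.3% and of ITGA3 from 63.9% to 58.9%.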
